A study of Mus musculus with 6 samples.

Results

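Kruppel-like factors (KLFs) are transcription factors that bind GC-rich and CACCC-type DNA elements through zinc fingers at the end of the protein. The 8 genes described here are Klf2, Klf3, Klf4, Klf5, Klf6, Klf9, Klf10 and Klf13. They were taken by symbol out of 17 Klf genes and 52636 genes in the count table. The choice was made with earlier results of these data known. RNA was sequenced from embryoid bodies (EBs), the aggregates that mouse embryonic stem cells (ESCs) form when they begin to differentiate, with 3 WT and 3 Tnfaip2-/- samples. Both genotypes belong to the ESC line E14. The WT EBs came from the parental line and the Tnfaip2-/- EBs from 1 CRISPR-Cas9 clone with a premature stop codon in exon 2 of Tnfaip2. ESCs of both genotypes were kept with leukemia inhibitory factor (LIF). They were aggregated for 3 days in hanging drops of ESC medium, which by the study's methods contains LIF. The EBs were then plated on gelatin in fibroblast medium without LIF, where they were collected on day 3. The labels and the methods differ in the volume and cell number of the drops. With 1 line per genotype, all p-values measure the spread between cultures, whose separation the labels do not describe, and genotype cannot be told apart from other properties of the clone.

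In mouse ESCs, KLF2, KLF4 and KLF5 act in overlapping ways within the network that maintains naive pluripotency, and Klf4 is a known target of LIF and STAT3. Other members work mainly as repressors: KLF3 recruits the corepressor CtBP, while KLF9, KLF10 and KLF13 recruit SIN3. Several are induced rapidly by outside signals, such as Klf10 by TGF-beta and Klf9 by glucocorticoid and thyroid hormone.

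The totals lay between 21765931 and 23804489 counts per sample. Tnfaip2 itself was counted 7, 4 and 7 times in WT and 0, 2 and 2 times in Tnfaip2-/- samples. It was lower in each Tnfaip2-/- sample, but it was close to the floor of 3 counts in both genotypes and did not pass the filter on low counts, so that this check of the labels is weak. Expression is given in CPM, the counts scaled to library size and composition, and SE is the standard error of a log2 fold change.

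Klf2 rose and Klf4 and Klf5 fell in Tnfaip2-/- EBs, so that the members known for the naive state moved in opposite directions. Klf3, Klf6, Klf9 and Klf10 rose by smaller amounts, and Klf13 did not pass the test. In all, 7 of the 8 members were called by the quasi-likelihood F test of edgeR (Benjamini-Hochberg adjusted p below 0.05), 5 of them higher and 2 lower. Of all 17849 tested genes 67.7% were called by the same test, 34.0% higher and 33.7% lower, so that a call alone is a common outcome in these samples. The median log2 fold change was 0.26 over the 8 members and 0.00 over all tested genes. All 8 members passed the filter. Against a fold change of 1.5 instead of any change, 3 members (Klf2, Klf4 and Klf5) were called, beside 15.7% of all tested genes. In bulk RNA, fewer cells that express a gene and less RNA of it per cell cannot be told apart.

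**Figure D1:**
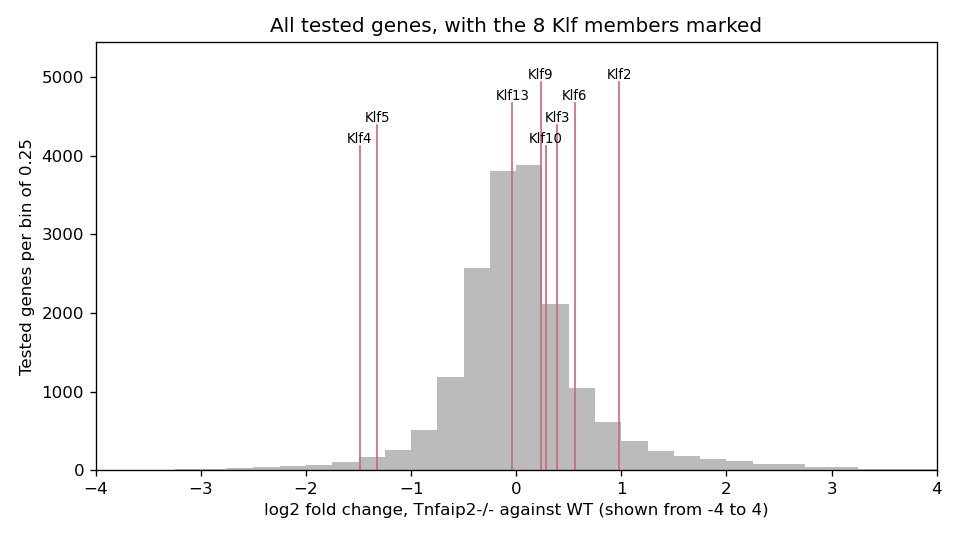
Histogram of the log2 fold change (Tnfaip2-/- against WT) of the tested genes, as genes per bin of 0.25, with red lines at the 8 Klf members. Klf4 (-1.49) and Klf5 (-1.32) lie in the lower tail, Klf2 (0.98) lies in the upper part, and Klf13 (-0.04) lies near the centre.

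Klf2 encodes a factor of the naive network that is also known from endothelial cells and resting T cells. It lies on the forward strand of chromosome 8, from 72319033 to 72321656 in GRCm38. Klf2 stood at 178.9, 169.7 and 159.4 CPM in the WT EBs and at 315, 339 and 349 CPM in the Tnfaip2-/- EBs. Every Tnfaip2-/- sample was above every WT sample. The mean rose from 169 ± 9.74 to 334 ± 17.6 CPM (SD, n = 3), which is a change of 0.98 in log2 (SE 0.0378; quasi-likelihood F test of edgeR, adjusted p = 4.66e-16). Of the tested genes, 92.3% had a lower log2 fold change than Klf2.

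Klf4 is among the factors used to reprogram somatic cells to pluripotency. It lies on the reverse strand of chromosome 4, from 55527143 to 55532466. Its values were 51.9, 52.3 and 52.3 CPM in the WT EBs and 18.3, 17.5 and 20.02 CPM in the Tnfaip2-/- EBs. The WT samples were nearly identical, and all lay above the Tnfaip2-/- samples. The mean fell from 52.2 ± 0.188 to 18.6 ± 1.28 CPM (SD, n = 3), a ratio of 0.357 or, as log2 fold change, -1.49 (SE 0.0508; quasi-likelihood F test of edgeR, adjusted p = 6.81e-29). A lower log2 fold change was found for 2.13% of the tested genes.

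Klf5 is needed in the early embryo for the trophectoderm and the inner cell mass. It lies on the forward strand of chromosome 14, from 99298691 to 99315036. The samples gave 25.8, 25.7 and 25.3 CPM in the WT EBs and 10.1, 9.04 and 11.5 CPM in the Tnfaip2-/- EBs. The genotypes did not overlap, and the relative spread was larger in the Tnfaip2-/- EBs, with a coefficient of variation of 12.3% against 0.983%. Its mean fell from 25.6 ± 0.252 to 10.2 ± 1.26 CPM (SD, n = 3), and the log2 fold change was -1.32 (SE 0.0693; quasi-likelihood F test of edgeR, adjusted p = 9.1e-22).

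**Figure D2:**
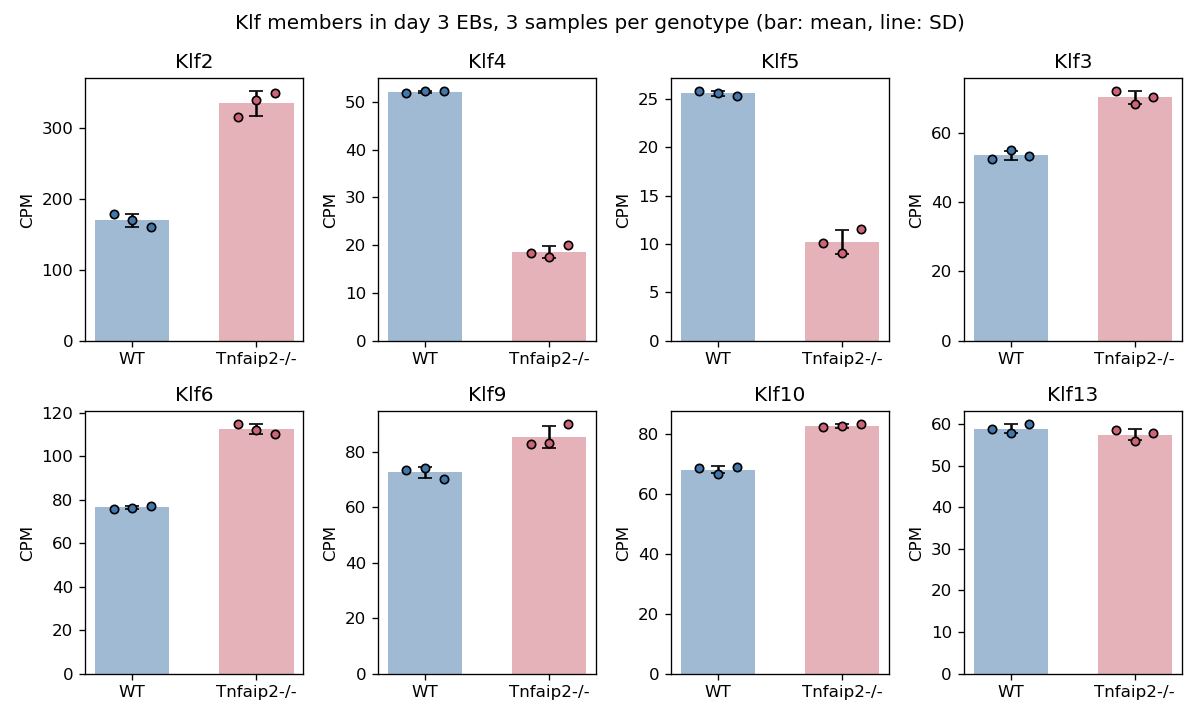
CPM of each member in the 3 WT (blue) and 3 Tnfaip2-/- (red) samples, with points for samples, bars for means and lines for the SD. The genotypes are separate for 7 members and overlap for Klf13, where both means are near 58 CPM (59.0 and 57.5).

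Because Klf2 and Klf4 moved apart, the sequences around their start sites are shown for comparison. RefSeq promoters of 300 bases in GRCm38.p6 were found for 6 of the 8 members (Klf2, Klf3, Klf4, Klf6, Klf9 and Klf13). The Klf2 window is chr8:72318812-72319111 on the forward strand and the Klf4 window is chr4:55532426-55532725 on the reverse strand, both printed along the direction of transcription. Capitals mark matches, on either strand, to the CACCC box CCCACCC, the GC box GGGCGG or the STAT site TTCNNNGAA.
Klf2: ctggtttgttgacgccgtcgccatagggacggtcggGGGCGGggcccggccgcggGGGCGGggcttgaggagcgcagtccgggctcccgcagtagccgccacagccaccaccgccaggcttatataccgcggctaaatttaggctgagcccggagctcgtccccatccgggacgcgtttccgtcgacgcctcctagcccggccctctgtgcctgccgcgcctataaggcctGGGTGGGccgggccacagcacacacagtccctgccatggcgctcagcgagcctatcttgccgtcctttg
Klf4: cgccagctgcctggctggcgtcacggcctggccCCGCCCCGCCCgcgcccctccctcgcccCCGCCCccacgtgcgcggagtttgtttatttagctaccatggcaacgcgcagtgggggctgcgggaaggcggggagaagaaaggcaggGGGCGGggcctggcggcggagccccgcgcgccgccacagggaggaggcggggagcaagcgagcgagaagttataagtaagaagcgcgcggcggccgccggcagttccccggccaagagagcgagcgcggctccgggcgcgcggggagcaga
The Klf2 window had 2 GC boxes and 1 CACCC box, and the Klf4 window had 4 GC boxes, of which 3 on the reverse strand and a pair that shares 1 base, and 0 CACCC boxes. Neither held the letters of the STAT site. Among the other windows, Klf3 had 6 GC boxes, Klf13 had 3, Klf6 had 1 and Klf9 had 0. A CACCC box was found 2 times in Klf3 and 1 time in Klf13, where it overlaps a GC box by 3 bases. The STAT site was found 1 time, in Klf9. Of all 32851 promoters of this table, 35.7% held a GC box, 17.5% a CACCC box and 8.3% a STAT site. A match describes the letters of a window and is not evidence of binding.

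The balance between these 3 members was compared within each sample as the difference in log2 CPM. For Klf2 against Klf4 it was 1.78, 1.70 and 1.61 in WT and 4.11, 4.27 and 4.13 in Tnfaip2-/- samples. The ratio was higher in each Tnfaip2-/- sample, by 2.47 in the mean of the log2 ratio (exact permutation test over samples, two-sided, p = 0.1, n = 3). This p is the smallest that 3 against 3 samples can give, and 3 pairs of members were compared. For Klf2 against Klf5 the mean log2 ratio was 2.72 ± 0.0694 in the WT EBs and 5.04 ± 0.166 in the Tnfaip2-/- EBs (SD, n = 3), again without overlap (exact permutation p = 0.1). The log2 ratio of Klf4 to Klf5, which fell together, moved less, by -0.16 (1.03 ± 0.0184 against 0.87 ± 0.0812, exact permutation p = 0.1, n = 3).

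Between genes, levels can be compared only per length, as CPM per kb of exon. On this scale Klf2 made up 81.5%, 80.6% and 79.7% of the sum of Klf2, Klf4 and Klf5 in WT and 95.6%, 96.1% and 95.6% in Tnfaip2-/- samples. The share of Klf4 went from 15.1% ± 0.747 to 3.23% ± 0.188, and that of Klf5 from 4.33% ± 0.160 to 1.04% ± 0.113 (SD, n = 3). These shares use the union of exons as length. By the longest transcript, an alternative chosen after seeing the data, the share of Klf5 was 6.56% ± 0.236 in WT and 1.60% ± 0.173 in Tnfaip2-/- samples, and that of Klf2 was 78.6% ± 0.956 and 95.2% ± 0.357 (SD, n = 3). The summed level of these 3 genes was 114 ± 5.27 CPM per kb in the WT EBs and 189 ± 9.85 CPM per kb in the Tnfaip2-/- EBs (SD, n = 3), so that the sum was higher although 2 of its 3 genes were lower.

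**Figure D3:**
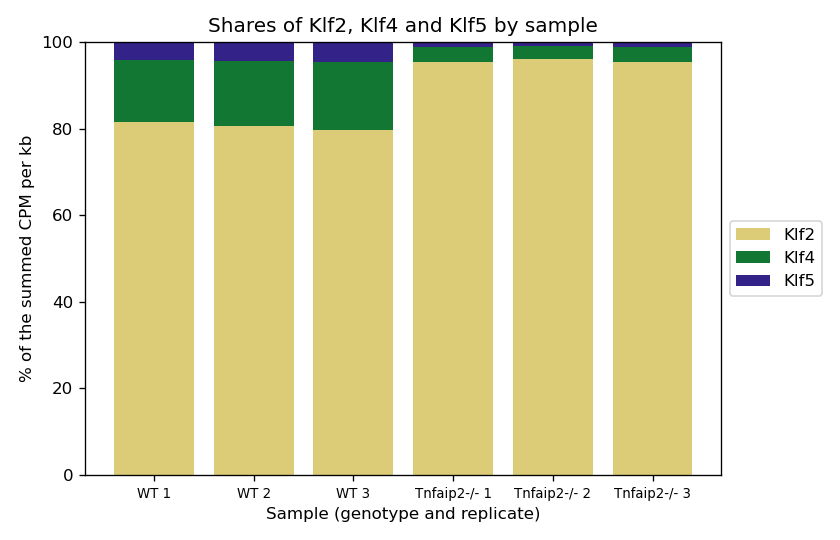
Share of Klf2, Klf4 and Klf5 in their summed CPM per kb of exon, in % for each sample (stacked bars). Klf2 takes 79.7% to 81.5% in the WT samples and 95.6% to 96.1% in the Tnfaip2-/- samples.

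Among the members not tied to the naive state, Klf6 changed most. Klf6 encodes a broadly expressed activator that responds early to injury and growth signals. Its level was 75.8, 76.3 and 77.1 CPM in the WT EBs and 114.8, 111.9 and 110.2 CPM in the Tnfaip2-/- EBs. The genotypes were well separated, with a log2 fold change of 0.56 (SE 0.0330; quasi-likelihood F test of edgeR, adjusted p = 9.95e-20).

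Klf3, the repressor that works through CtBP, had 52.3, 54.9 and 53.4 CPM in the WT EBs and 72.0, 68.2 and 70.4 CPM in the Tnfaip2-/- EBs. All Tnfaip2-/- samples were higher. The log2 fold change was 0.39 (SE 0.0384; quasi-likelihood F test of edgeR, adjusted p = 1.99e-12). Of the 51-base windows in its exons, the length of a read, 3.43% also occur in other genes, against at most 0.230% in the other members.

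Klf9, the hormone-induced member, stood at 73.5, 74.1 and 70.2 CPM in the WT EBs and at 82.7, 83.3 and 90.1 CPM in the Tnfaip2-/- EBs. The lowest Tnfaip2-/- sample was above the highest WT sample, and the log2 fold change was small at 0.23 (SE 0.0370; quasi-likelihood F test of edgeR, adjusted p = 3.48e-07). Klf10, the member induced early by TGF-beta, gave 68.7, 66.9 and 69.0 CPM in the WT EBs and 82.3, 82.6 and 83.5 CPM in the Tnfaip2-/- EBs. It did not overlap between genotypes either (log2 fold change 0.28, SE 0.0351; quasi-likelihood F test of edgeR, adjusted p = 1.72e-09). These changes were of ordinary size, since 40.8% of the tested genes had a smaller absolute log2 fold change than Klf9 and 47.0% a smaller one than Klf10.

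Klf13, a factor known from T lymphocytes, had 58.8, 58.0 and 60.1 CPM in the WT EBs and 58.6, 56.0 and 57.8 CPM in the Tnfaip2-/- EBs. Its samples overlapped, and the log2 fold change of -0.04 had a 95% confidence interval from -0.12 to 0.04 (quasi-likelihood F test of edgeR, adjusted p = 0.400). In 7 of 8 members the samples of the genotypes did not overlap, beside 69.4% of all tested genes.

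Per length, Klf2 was the most abundant member in both genotypes, with 91.7 ± 5.28 CPM per kb in the WT EBs and 181 ± 9.52 CPM per kb in the Tnfaip2-/- EBs (SD, n = 3). In the WT EBs it was followed by Klf6 at 17.4, Klf4 at 17.1, Klf10 at 16.3 and Klf9 at 15.1 CPM per kb. Klf13 at 7.83, Klf5 at 4.92 and Klf3 at 4.76 CPM per kb were lower, and the samples of Klf5 and Klf3 overlapped while other neighbours in this order did not. In the Tnfaip2-/- EBs Klf4 went from rank 3 to rank 7, with 6.10 ± 0.419 CPM per kb, and overlapped with Klf3 at 6.24 ± 0.169 CPM per kb. Klf5 was last at 1.97 ± 0.242 CPM per kb. Summed over the 8 members, the level was 175 ± 5.29 CPM per kb in the WT EBs and 266 ± 10.01 CPM per kb in the Tnfaip2-/- EBs (SD, n = 3). The ranks of the less abundant members depend on the length used. By the longest transcript, Klf10 came next after Klf2 in both genotypes, and it overlapped with Klf6 in the Tnfaip2-/- EBs.

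**Figure D4:**
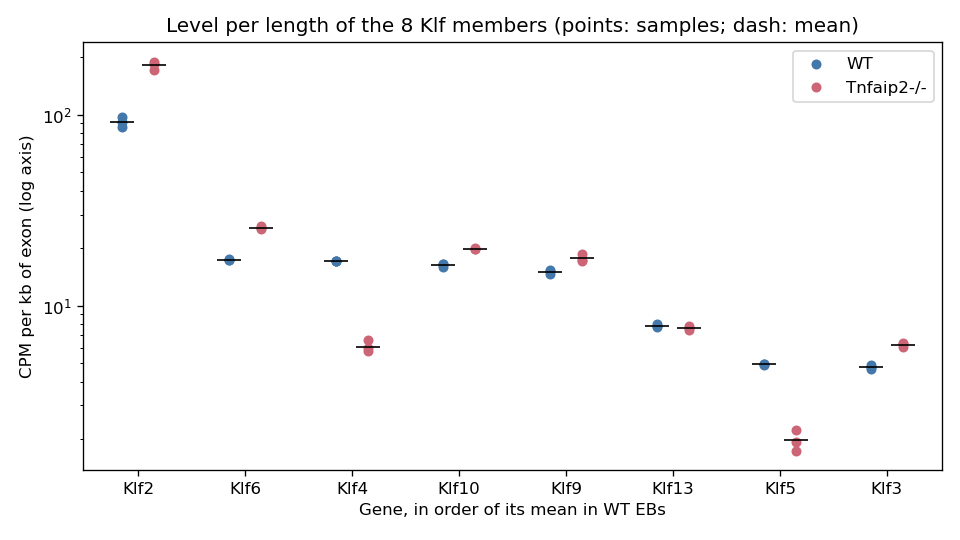
Level of the 8 members in CPM per kb of exon on a log axis, with points for the 3 samples of each genotype and dashes for means. Klf2 lies above all other members, and Klf4 and Klf5 are the members with clearly lower points in Tnfaip2-/- EBs.

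The other 9 Klf genes were described by the same fit. Of these, 7 were tested and 5 were called, 2 higher and 3 lower, beside 67.7% called among all tested genes. Klf8, a repressor that binds CtBP like KLF3, rose from 12.4 ± 0.412 to 30.99 ± 1.37 CPM (SD, n = 3; log2 fold change 1.32, quasi-likelihood F test of edgeR, adjusted p = 9.33e-24). Klf15, known as a regulator of metabolism, fell from 26.6 ± 0.208 to 7.56 ± 0.153 CPM (SD, n = 3; quasi-likelihood F test of edgeR, adjusted p = 4.28e-27; log2 fold change -1.81), a larger change than that of any of the 8 members. Klf16 had a log2 fold change of -0.58, Klf11 of -0.15 and Klf7 of 0.23, and the calls of Klf11 and Klf7 were lost with DESeq2. On the opposite strand, exons of Gm13748 and Gm26649 overlap 39.4% of the exon bases of Klf7, and reads of the strands cannot be separated, since the library kit does not keep the strand. Klf1, the erythroid member, and Klf12 did not pass the test. Klf14 and Klf17 had at most 9 counts in a sample and were not tested.

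The Sp factors share the zinc fingers of the KLFs and bind GC boxes. Of 9 Sp genes 7 were tested and 6 were called, 2 higher and 4 lower, beside 67.7% called among all tested genes. Sp8, which acts in limb and brain development, fell from 10.3 ± 0.497 to 1.13 ± 0.369 CPM, and Sp5, a target of Wnt signaling, fell from 6.71 ± 0.626 to 0.959 ± 0.111 CPM (SD, n = 3). Their log2 fold changes were -3.17 and -2.80 (quasi-likelihood F test of edgeR, adjusted p = 2.46e-24 and 1.95e-20). Sp4 had a log2 fold change of -0.97, Sp7 of -0.77, Sp2 of 0.22 and Sp3 of 0.09. The calls of Sp3 and Sp7 were lost with DESeq2. The call of Sp3 was also lost without the filter (log2 fold change 0.08), without WT replicate 1 (log2 fold change 0.06), without Tnfaip2-/- replicate 1 (0.08) or without Tnfaip2-/- replicate 3 (0.08). The call of Sp7 was lost without WT replicate 2 (-0.63), WT replicate 3 (-0.80), Tnfaip2-/- replicate 1 (-0.64) or Tnfaip2-/- replicate 2 (-0.73). Sp1, the broadly expressed founder of this family, did not pass the test at a log2 fold change of -0.03. Sp6 and Sp9 were not tested.

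**Figure D5:**
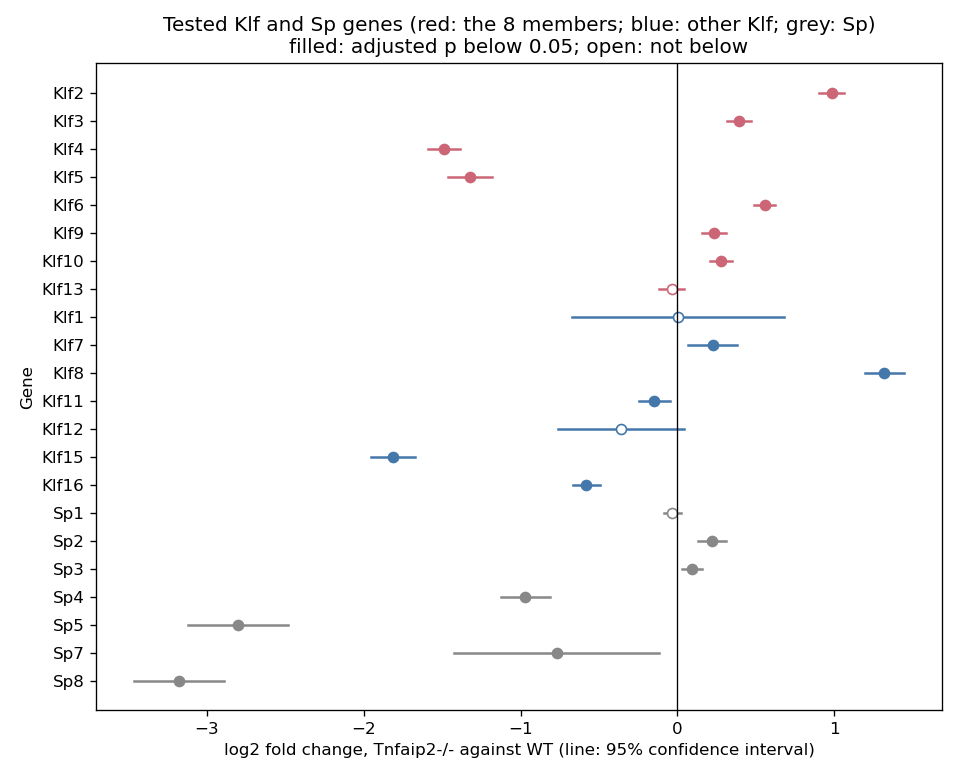
Log2 fold change (Tnfaip2-/- against WT) with its 95% confidence interval for the tested Klf and Sp genes, filled where the adjusted p was below 0.05. The 8 members (red) range from -1.49 to 0.98, and the lowest value in the plot is that of Sp8 at -3.17.

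Cofactors and ubiquitin ligases that act with KLFs were called for 9 of 11 genes, beside 67.7% of all tested genes. Of these calls, 5 were higher and 4 lower (median log2 fold change of the list 0.01). Sin3b, a scaffold of histone deacetylase complexes, rose from 131 ± 2.87 to 209 ± 4.73 CPM (log2 fold change 0.68), and Ctbp1, a partner of KLF3 and KLF8, fell from 144 ± 4.37 to 91.5 ± 1.64 CPM (log2 fold change -0.65; SD, n = 3). The acetyltransferase gene Kat2b had a log2 fold change of -0.58. Hdac1, which had the highest mean CPM of the list over the 6 samples, was at 184 ± 2.27 and 175 ± 1.23 CPM, and its call (log2 fold change -0.07) was lost without scaling factors.

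Genes of pathways known to act upstream of KLFs were read in the same way, again beside the 67.7% of all tested genes that were called. Of 8 genes of LIF and STAT3 signaling, 6 were higher, 1 was lower and 1 was not called (median log2 fold change 0.35). Lif, the cytokine itself, had a log2 fold change of 2.35 and its receptor gene Lifr of -0.93. The kinase gene Pim1, a STAT3 target, had 0.75, and Il6st, the shared receptor subunit, had 0.17. TGF-beta genes were called for all 10 tested of 11, 5 higher and 5 lower (median 0.13). However, samples of the genotypes were separate for only 8 of the 10, beside 69.4% of all tested genes. When 1 sample was left out, 9 to 11 genes were called. The log2 fold change was 1.72 for the ligand Tgfb1, 1.41 for the receptor Tgfbr2 and -0.20 for Skil, a feedback inhibitor.

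Among 8 genes of glucocorticoid and thyroid hormone signaling, 7 were tested, of which 1 was higher and 4 were lower (median log2 fold change -0.41). The glucocorticoid receptor gene Nr3c1 had a log2 fold change of 0.89, while the targets Sgk1 and Per1 had -1.42 and -0.70. Fkbp5, another target, had -0.52. Tsc22d3 of the same list was not called, at 8.52 CPM in the WT EBs and 8.48 CPM in the Tnfaip2-/- EBs. Of 14 immediate-early genes 11 were tested, with 4 higher and 5 lower (median -0.13), and 7 to 8 were called when 1 sample was left out. Ier3 and Jun rose, with log2 fold changes of 2.14 and 1.65, and Myc fell, with -1.29. Ier2 had -0.14. In the ERK5 and MEF2 pathway, which induces Klf2 in endothelial cells, 4 of 6 genes were tested, 1 was higher and 2 were lower (median -0.03). Mef2a had 0.39, the kinase gene Map2k5 had -0.52 and Mef2d had -0.13. The samples of Mef2d overlapped between genotypes, and its call was lost with DESeq2, without scaling factors, and without Tnfaip2-/- replicate 1 (log2 fold change -0.07). Mapk7, the gene of ERK5 itself, was at 78.7 ± 2.31 and 81.8 ± 1.72 CPM and was called only without scaling factors.

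Of 12 genes reported as targets of KLF2, KLF4 and KLF5 in ESCs, all were tested and called, beside 67.7% of all tested genes. Of these targets, 6 were higher and 6 lower (median log2 fold change -0.04). Tcl1 and Tbx3 fell, with log2 fold changes of -1.82 and -1.45 (quasi-likelihood F test of edgeR, adjusted p = 3.42e-20 and 1.03e-25), and Zfp42 rose, with 0.90. Pou5f1, a core pluripotency factor, fell from 760 ± 9.63 to 419 ± 5.97 CPM (SD, n = 3; log2 fold change -0.86). The targets thus went both ways, as the tested genes in general did (34.0% called higher and 33.7% lower). Which member acts on which gene was not tested.

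Markers of cell types that EBs can hold were summed in each sample. A marker is given as higher or lower where it was called, as 67.7% of all tested genes were. The 10 pluripotency markers were at 3112, 3106 and 3109.7 CPM in the WT EBs and at 2724, 2721 and 2734 CPM in the Tnfaip2-/- EBs, with 4 markers higher and 6 lower. Pou5f1 had the highest mean CPM over the 6 samples. The log2 fold change was -1.05 for Lin28a and -0.86 for Pou5f1, while Zfp42 rose, with 0.90. The 7 endothelial markers were at 31.3, 30.8 and 29.7 CPM in the WT EBs and at 42.3, 45.9 and 48.6 CPM in the Tnfaip2-/- EBs, with 4 higher, 1 lower and 2 not tested. Pecam1 gave most of this sum (23.8 ± 0.616 and 32.6 ± 2.77 CPM, SD, n = 3), and it is also expressed in ESCs. Esam had a log2 fold change of 1.61 and Tek of 0.81. The receptor gene Kdr was counted 34, 38 and 32 times in WT and 5, 6 and 3 times in Tnfaip2-/- samples, and Emcn was at the floor in both genotypes, with 1, 0 and 2 counts in WT and 0 in each Tnfaip2-/- sample.

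The 7 trophoblast markers summed to 54.4, 53.1 and 51.03 CPM in the WT EBs and to 194.0, 189 and 195 CPM in the Tnfaip2-/- EBs, with 3 higher, 2 lower and 2 not tested. Most of the sum in Tnfaip2-/- EBs was Tfap2c, at 21.7 ± 1.07 and 171 ± 1.65 CPM (SD, n = 3). Eomes had a log2 fold change of -0.62, and Cdx2, a defining trophoblast factor, was counted 42, 37 and 28 times in WT and 1, 2 and 0 times in Tnfaip2-/- samples. Hand1 and Krt7, also of low abundance, went the other way. Their means rose from 0.364 to 1.24 CPM and from 0.581 to 1.41 CPM (log2 fold changes 1.75 and 1.26). The 8 markers of surface ectoderm and simple epithelium, where Klf4 and Klf5 are also active, were at 184, 180.1 and 183.7 CPM in the WT EBs and at 189.6, 184 and 187.7 CPM in the Tnfaip2-/- EBs, with 1 higher, 3 lower, 1 not called and 3 not tested. Krt19 had a log2 fold change of 4.33, Tfap2a of -1.39 and Epcam, with the highest mean CPM, of -0.47.

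The 8 markers of primitive and visceral endoderm were at 73.3, 72.2 and 74.2 CPM in the WT EBs and at 60.9, 58.8 and 62.5 CPM in the Tnfaip2-/- EBs, with 1 higher, 5 lower and 2 not called. Apoa1, Ttr and Foxa2 had log2 fold changes of -2.59, -1.95 and -1.16, and Dab2, with the highest mean CPM, of -0.17. The 7 fibroblast markers were at 8.65, 10.004 and 8.64 CPM in the WT EBs and at 5.81, 6.30 and 6.85 CPM in the Tnfaip2-/- EBs, with 2 lower, 2 not called and 3 not tested. Col1a2 had a log2 fold change of -1.50, and Thy1 had the highest mean CPM. Postn had 2, 2 and 4 counts in WT, Lum had 0, 1 and 1, and both had 0 in each Tnfaip2-/- sample, so that they were near the floor in both genotypes. The 7 primitive erythroid markers, Klf1 among them, were at 2.60, 4.06 and 4.09 CPM in the WT EBs and at 3.87, 3.70 and 3.38 CPM in the Tnfaip2-/- EBs. Of these, 2 were tested and 0 were called by the quasi-likelihood F test of edgeR (0 also by DESeq2 and 0 at an unadjusted p below 0.05), and Epor had the highest mean CPM. The globin genes Hbb-bh1, Hba-x and Hbb-y had at most 1 count in a WT sample and 0 in each Tnfaip2-/- sample, and thus were at the floor in both genotypes. The part of cell composition in the changes of the Klf genes was not tested.

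For each member, the 2 genes with the most similar pattern over the 6 samples were found among the 11927 genes that averaged 5 CPM or more, as the root mean square difference of log2 values centred on each gene's mean. The pattern of Klf2 was closest to Pfkfb3, an enzyme of glycolysis control, at 0.0263, and to the small heat shock gene Hspb1 at 0.0372. For Klf4 they were Lrmp at 0.0499 and the ubiquitin ligase gene Dtx3 at 0.0517. For Klf5 they were Tmem145 at 0.0304 and the pseudokinase gene Trib1 at 0.0470. The closest genes to Klf3 were Lpgat1 and Anln (0.00803 and 0.00896), and those to Klf6 were Picalm and Riok3 (0.0128 and 0.0156). Klf9 was closest to Slc27a3 and Ubb (0.01796 and 0.0187), Klf10 to Pgam1 and Epb41l2 (0.0109 and 0.0141), and Klf13 to the pseudogene Rpl21-ps11 and to Tomm20 (0.00996 and 0.0121). With 6 samples in 2 groups, such likeness mainly reflects a similar log2 fold change.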

How the data were processed

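RNA of 6 EB samples was grouped by the genotype in the labels, 3 WT and 3 Tnfaip2-/-. The authors trimmed and mapped reads of 51 bases to GRCm38, and deposited whole counts of uniquely mapped reads per gene without normalization. The study's methods and sample labels name TopHat2 2.1.0 and featureCounts 1.5.0, and the strand setting is not given in the sources used here. Of 52636 gene identifiers, 52403 were matched to symbols. Symbols, positions and exon lengths came from GENCODE M21 (GRCm38), and promoters from RefSeq (GRCm38.p6).

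The analysis of these counts used edgeR 4.0.16 in R 4.3.3. The default expression filter (minimum count 10, minimum total 15) kept 17849 genes. After TMM scaling, genotypes were compared across all genes with the robust quasi-likelihood F test, in its newer form, and p was adjusted by Benjamini-Hochberg, with 0.05 as threshold. The SE was obtained as the size of a log2 fold change over the square root of its F statistic. The code was tested on simulated data. Ratios were compared by exact permutation in scipy 1.17.1, and patterns used log2(CPM + 0.5). Alternatives were DESeq2 1.42.0, other scaling, no filter, a test against a fold change of 1.5, a block for replicate number, omission of single samples, and another exon length. Shrunken DESeq2 changes, the legacy quasi-likelihood fit and shares by the longest transcript were added after seeing the data. The members and gene lists were chosen with earlier results of these data known. Named genes were all 8 members, each called Klf or Sp gene, and from each other list up to 3 of the called genes with the largest absolute log2 fold change and a mean of at least 1 CPM, plus the gene with the highest mean CPM over the 6 samples, which is not scaled to length. Some named genes fall outside this rule and were named after their values were seen. These are Klf and Sp genes that were not called, Kdr, Cdx2, Hand1, Krt7, Tsc22d3 and the markers named with 0 counts. At the depth of these samples the floor of 3 counts was 0.128 to 0.137 CPM, which covers counting error only. Proteins were not analysed here.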

Additional observations from a re-analysis of the deposited data

How the results depend on the processing

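Of 1126 values under alternatives, 1049 were taken as the same: for a log2 fold change this means the same direction and call, for a ratio the same direction, for a level a difference below the SD, and for a number of calls a factor of at most 1.5. All members kept their direction under every alternative, and 7 were called under each except the test against a fold change of 1.5. With that test, 2798 genes or 15.7% of those tested were called (1615 higher and 1183 lower), and 3 members, of which 1 was higher. Klf3, Klf6, Klf9 and Klf10, with log2 fold changes of 0.39, 0.56, 0.23 and 0.28, lost their calls, since these changes are smaller than the fold tested. By the same test the calls were 2 among the other Klf genes, 3 among Sp genes, 2 among cofactors and ligases, 3 each among immediate-early, LIF and STAT3, hormone and TGF-beta genes, 5 among the reported targets, and 0 of 4 among ERK5 and MEF2 genes (also 0 at an unadjusted p below 0.05, with edgeR). DESeq2 called 10268 genes, and 3 of the other Klf genes, with or without shrinkage of the log2 fold changes. Shrinkage and the legacy form of the quasi-likelihood fit were chosen after seeing the data, and the legacy form called 12069 genes. Epor, which was not called, changed sign when samples were left out (log2 fold change of Epor -0.0934 without WT replicate 1 and -0.0507 without Tnfaip2-/- replicate 1, range -0.0934 to 0.15), and the cause was not tested.

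In a fit with a block for replicate number, 11841 genes and the same number of members (7) were called. Same-numbered samples did not deviate together, with correlations of -0.0218, -0.0252 and -0.0324 across genes after removal of the genotype means, so that the numbers were not taken as pairs. No sample correlated best with its own number.

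By the longest transcript, levels in CPM per kb in the WT and Tnfaip2-/- EBs were 10.3 and 13.4 for Klf3, 7.64 and 3.05 for Klf5, 18.1 and 26.6 for Klf6, 16.2 and 19.03 for Klf9, 22.4 and 27.2 for Klf10, and 9.22 and 8.98 for Klf13, and 17.2 for Klf4 in the WT EBs, since this length is shorter than the union of exons.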
